A study of Mus musculus with 272 samples.

Results

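The data described here are 2 H3K4me3 ChIP-seq libraries of mouse muscle stem cells (MuSCs), which are 2 of the 272 samples of a study of CRISPR-Cas9 repair outcomes, chosen as the 2 libraries labelled H3K4me3. The MuSCs came from hindlimb muscle of Pax7Cas9 mice, in which Pax7Cre switches on a Cre-dependent Cas9-EGFP transgene at Rosa26. The cells were released with collagenase II and dispase and sorted by FACS as GFP+ cells, so the population was defined by the activity, past or present, of the *Pax7* promoter. The sorted cells of every library used here therefore carry the Cas9-EGFP transgene, and the labels give the tissue as skeletal muscle, with no age, sex, strain background or virus treatment for these libraries and no statement on whether replicates 1 and 2 were separate mice. The H3K27ac ChIP-seq and ATAC-seq libraries of MuSCs, with 2 replicates each, serve as comparators below, and the labels do not say whether they share cells with the H3K4me3 libraries.

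H3K4me3 is trimethylation of lysine 4 on histone H3 and marks the nucleosomes around transcription start sites (TSSs) of active or poised promoters. It is written by SET1 and MLL methyltransferases in complexes built on WDR5, ASH2L, RBBP5 and DPY30, which are drawn to unmethylated CpG islands by CXXC zinc finger proteins such as CXXC1. It is read by PHD finger proteins such as TAF3 and the ING family, and removed by KDM5 demethylases. In muscle stem cells the mark is known at myogenic regulators and at housekeeping promoters, and unusually wide H3K4me3 domains have been described at genes of cell identity.

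Each library was deposited as a list of peaks, 20519 in replicate 1 and 18006 in replicate 2, with the fold enrichment of the summit over local background. The lists hold no read counts, so the depth is unknown and no counting interval can be given. Replicate 1 had wider and stronger peaks than replicate 2, with a median width of 1158 against 1027 bp and a median fold of 12.7 against 11.7, and every result is given for each replicate. Where medians over libraries are tested, p-values measure only the spread between these samples, which may be technical, and an exact permutation test of 2 against 2 libraries cannot go below a two-sided p of 0.333.

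A gene was called marked when an H3K4me3 peak reached within 1 kb of any of its TSSs in GENCODE M21. The promoters printed next show what marked and unmarked promoters looked like at the level of sequence. Each is the RefSeq promoter of GRCm38.p6, the assembly of mm10, from 250 bases before to 50 bases after the RefSeq TSS, written 5′ to 3′ in the direction of transcription, with every CG dinucleotide in capitals. *Pax7*, the transcription factor that defines MuSCs, is shown for the widest peak of the marker list. *Runx1* and *Dmd* are shown for alternative promoters that differed in mark, *Rdx* for a mark that sat beside an annotated TSS, and *Myh4*, the heavy chain of fast myofibres, for a promoter with no peak nearby.
*Pax7*, chr4:139832919-139833218, minus strand: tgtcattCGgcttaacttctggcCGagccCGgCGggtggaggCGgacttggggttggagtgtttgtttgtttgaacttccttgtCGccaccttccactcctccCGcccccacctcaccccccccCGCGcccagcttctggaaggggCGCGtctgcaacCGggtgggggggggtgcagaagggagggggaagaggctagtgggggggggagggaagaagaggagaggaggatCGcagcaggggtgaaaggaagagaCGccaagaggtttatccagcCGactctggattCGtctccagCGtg
*Runx1* distal, chr16:92826025-92826324, minus strand: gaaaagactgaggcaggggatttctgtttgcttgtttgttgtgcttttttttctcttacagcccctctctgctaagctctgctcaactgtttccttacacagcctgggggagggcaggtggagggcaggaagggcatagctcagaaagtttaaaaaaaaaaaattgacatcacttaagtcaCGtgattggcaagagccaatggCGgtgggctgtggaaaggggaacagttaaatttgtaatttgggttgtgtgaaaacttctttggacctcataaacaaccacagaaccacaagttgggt
*Runx1* proximal, chr16:92697280-92697579, minus strand: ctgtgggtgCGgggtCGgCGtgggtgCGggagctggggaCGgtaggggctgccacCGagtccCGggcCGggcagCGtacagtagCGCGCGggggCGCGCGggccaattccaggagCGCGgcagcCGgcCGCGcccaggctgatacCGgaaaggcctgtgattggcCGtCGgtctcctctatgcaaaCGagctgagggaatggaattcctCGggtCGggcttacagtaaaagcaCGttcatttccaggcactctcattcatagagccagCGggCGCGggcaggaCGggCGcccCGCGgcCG
*Dmd* upstream, chrX:82948620-82948919, plus strand: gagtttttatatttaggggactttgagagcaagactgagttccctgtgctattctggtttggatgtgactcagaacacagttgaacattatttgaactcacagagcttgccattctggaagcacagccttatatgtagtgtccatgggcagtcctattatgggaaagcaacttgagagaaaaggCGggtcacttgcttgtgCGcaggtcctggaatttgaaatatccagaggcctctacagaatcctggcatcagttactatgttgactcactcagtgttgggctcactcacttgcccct
*Dmd* downstream, chrX:85048045-85048344, plus strand: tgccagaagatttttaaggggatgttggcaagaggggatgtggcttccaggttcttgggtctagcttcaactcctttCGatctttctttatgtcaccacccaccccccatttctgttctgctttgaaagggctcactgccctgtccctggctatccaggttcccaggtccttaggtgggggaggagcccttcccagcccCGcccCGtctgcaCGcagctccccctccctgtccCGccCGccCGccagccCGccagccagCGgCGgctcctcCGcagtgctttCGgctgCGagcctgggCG
*Rdx* at the reference TSS, chr9:52046900-52047199, plus strand: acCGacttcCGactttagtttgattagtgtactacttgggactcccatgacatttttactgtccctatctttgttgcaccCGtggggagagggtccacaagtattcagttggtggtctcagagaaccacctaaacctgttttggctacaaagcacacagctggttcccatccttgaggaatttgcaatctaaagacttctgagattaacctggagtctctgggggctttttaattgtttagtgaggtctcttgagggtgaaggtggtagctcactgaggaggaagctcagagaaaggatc
*Rdx* downstream, chr9:52047691-52047990, plus strand: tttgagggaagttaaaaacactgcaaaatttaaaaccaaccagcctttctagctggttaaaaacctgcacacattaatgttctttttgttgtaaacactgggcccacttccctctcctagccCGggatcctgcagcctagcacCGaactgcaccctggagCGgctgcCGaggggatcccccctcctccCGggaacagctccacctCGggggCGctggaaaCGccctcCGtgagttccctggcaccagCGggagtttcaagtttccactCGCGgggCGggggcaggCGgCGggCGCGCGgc
*Myh4*, chr11:67237562-67237861, plus strand: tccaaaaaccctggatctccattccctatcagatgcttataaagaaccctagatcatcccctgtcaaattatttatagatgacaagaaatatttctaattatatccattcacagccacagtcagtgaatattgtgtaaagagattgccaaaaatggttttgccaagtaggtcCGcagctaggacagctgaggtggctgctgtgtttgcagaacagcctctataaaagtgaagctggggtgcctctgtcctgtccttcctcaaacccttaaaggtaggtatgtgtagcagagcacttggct

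The *Pax7* promoter held 17 CG dinucleotides in 300 bases and lay wholly inside a peak in both replicates. The distal *Runx1* promoter held 2 CG dinucleotides and had 11 of its bases inside a peak in replicate 1 and none in replicate 2, whereas the proximal *Runx1* promoter held 35 and was covered from end to end in both. The upstream *Dmd* promoter, with 2 CG dinucleotides, lay outside the nearest peaks by 198 and 402 bp measured from the RefSeq TSS in replicates 1 and 2, and the downstream one, with 14, had 300 and 93 of its bases inside a peak. The *Rdx* promoter at the reference TSS held 3 CG dinucleotides and no peak base, and the promoter that starts further into the gene held 18 and was covered throughout in both replicates. *Myh4* held 1 CG dinucleotide and a TATAAA sequence that began 31 bases before the RefSeq TSS, and its nearest H3K4me3 peaks were 112034 and 112155 bp away.

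Protein-coding genes made up most of the marked genes. A TSS peak was found for 16975 genes in replicate 1 and 16259 in replicate 2 of 55413 annotated genes, which is 30.6% and 29.3%, and for 16206 (29.2%) in both. Of the latter, 80.7% were protein coding. By type, 13531 and 13110 of 21938 protein-coding genes were marked in replicates 1 and 2, and 13083 (59.6%) were marked in both, so that the share per replicate was 60.7% ± 1.36 (SD, n = 2). The 448 coding genes marked in replicate 1 alone had a median fold of 3.77 and a median width of 382 bp, against 24.4-fold for genes marked in both in the same replicate, and 27 coding genes were marked in replicate 2 alone.

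Noncoding genes were marked mostly where they lay close to a protein-coding promoter. Of 5854 lincRNA genes, 728 and 626 were marked in replicates 1 and 2 and 615 (10.5%) in both. Among the 720 lincRNA genes with a protein-coding TSS within 5 kb, 353 (49.0%) were marked in both replicates, compared with 262 (5.10%) of the other 5134. Antisense genes gave 49.4% and 4.04% in the same split, snoRNA genes 35.9% and 2.80%, and miRNA genes 29.9% and 2.56%. Of the 190 bidirectional promoter lncRNAs, which by definition start next to a coding promoter, 167 (87.9%) were marked in both replicates. Processed pseudogenes, copies inserted from mRNA without their promoters, were marked in 99 of 9940 cases (0.996%), and rRNA genes in 7 of 354.

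**Figure D1:**
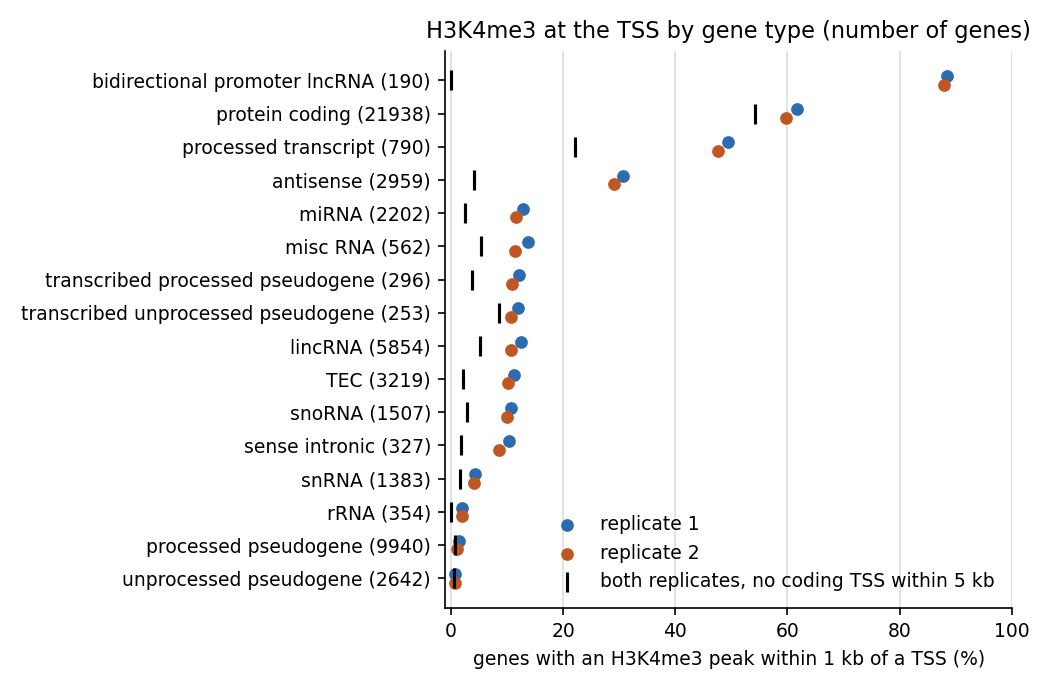
Share of genes (%, x axis) with an H3K4me3 peak within 1 kb of a TSS, by GENCODE M21 gene type with the number of genes in parentheses. Points are replicates 1 and 2 and vertical ticks are the share marked in both replicates among genes with no protein-coding TSS (for coding genes, no other one) within 5 kb, which for lincRNA genes falls to 5.10% and for antisense genes to 4.04%.

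Some noncoding genes far from any coding TSS carried marks as strong as those of coding genes. The lincRNA *6720427I07Rik* on chromosome 13 had folds of 41.4 and 43.1 in replicates 1 and 2, with its summit 219 and 288 bp downstream of its TSS. *Mir17hg*, the host of the miR-17-92 cluster of oncogenic miRNAs, had folds of 43.7 and 29. Its peaks, 3256 and 2846 bp wide, had their summits at −1713 and −1732 bp, where negative positions are upstream of the annotated TSS, and the miRNA genes *Mir17*, *Mir18* and *Mir19a* were called marked through these same peaks. The summit of another lincRNA, *C030034I22Rik*, lay 114 and 155 bp downstream of its TSS at folds of 38 and 30.3. *Dleu2*, a long noncoding host gene of the miR-15a and miR-16 miRNAs, had folds of 40.4 and 30.9, and *1810026B05Rik* had 45.9 and 35.9 with peaks of 5204 and 3257 bp. Lower marks stood at the scaRNA *Scarna2*, a guide for snRNA modification (30.6 and 21.5), the snoRNA *Snord104* (36.1 and 27.9), and the imprinted RNA *Peg13* (9.87 and 7.01).

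Of a list of 24 noncoding RNAs with known roles, 22 were in the annotation and 20 were marked in both replicates. *Malat1* and *Neat1*, the nuclear RNAs of speckles and paraspeckles, had peaks of 8307 and 6186 bp and of 7959 and 6219 bp. These were the only members over 4 kb in both replicates. The imprinted RNAs differed from each other in fold. *Kcnq1ot1* had 19 and 12, *Airn* 13.4 and 11.8, *Meg3* 12.4 and 8.88, and *H19* 4.49 and 4.41, with the *H19* peak measuring 1598 bp in replicate 1 and 371 bp in replicate 2. *Rian* and *Mirg*, which lie downstream of *Meg3* in the same imprinted cluster, had no TSS peak in either replicate. *Hotair*, transcribed from the Hoxc cluster, had only 4.09 and 2.90.

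Families of housekeeping genes were marked almost in full. All 13 RNA polymerase II subunit genes were marked in both replicates, as were 77 of 80 cytosolic ribosomal protein genes, 77 of 78 mitochondrial ribosomal protein genes, 44 of 46 complex I subunit genes and 44 of 49 proteasome subunit genes, against 59.6% of all coding genes. The unmarked ribosomal genes *Rpl10l*, *Rpl39l* and *Rpl3l* are paralogs with restricted expression. The cytosolic ribosomal genes had the highest median folds of these families, 36 and 25.1 in replicates 1 and 2. Of the developmental regulators, 32 of 39 Hox genes, 15 of 19 Sox genes and 29 of 44 Fox genes were marked, with Hox median folds of 11.9 and 9.85. Among genes of the matrix and its receptors, 30 of 44 collagen genes and 18 of 26 integrin genes were marked, and the leukocyte integrin genes *Itgal*, *Itgam*, *Itgax* and *Itgae* were among those that were not.

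At the other end, none of 1135 olfactory receptor genes was marked in both replicates, with 1 in replicate 1, and none of 42 beta-defensin genes was marked in either. Only *Vmn1r4* of 329 vomeronasal receptors, *Tas1r1* of 38 taste receptors, and *Krt1* and *Krt10* of 110 keratin genes were marked in both. Cytochrome P450 genes gave 18 of 98 and chemokines 7 of 37. Of the 14 myosin heavy chain genes, *Myh9*, *Myh10* and *Myh11*, which encode nonmuscle and smooth muscle forms, were marked in both replicates, and 4 of the 14 were in replicate 1. By chromosome, the share of coding genes marked in both was lowest on Y (3 of 183, 1.64%) and X (44.8%) and highest on chromosome 12 (73.1%), the autosomes with the lowest share being 14 and 7 (48.8% each).

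The marker genes of MuSCs carried wide domains of the mark. All 13 MuSC marker genes were marked in both replicates, and their strongest TSS peaks had median widths of 4663 and 3496 bp, compared with 1646 and 1342 bp over all coding genes marked in both. Over 4 kb wide were 9 of 13 in replicate 1 and 3 of 13 in replicate 2, whereas 3.41% and 1.38% of all marked coding genes passed this width. *Pax7*, at chr4:139820823-139834664 and chr4:139827339-139834405, had the widest peaks of the list at 13842 and 7067 bp, with folds of only 19 and 12.6. Its promoter printed above is near the upstream end of this domain, and the summits lay 759 and 797 bp into the gene.

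*Spry1*, an inhibitor of receptor tyrosine kinase signalling that holds MuSCs in quiescence, had peaks of 6842 and 5256 bp, and *Msc*, a bHLH repressor of myogenesis, had 6215 and 5703 bp. Together with *Pax7* they were the members over 4 kb in both replicates. The peaks of both covered the gene from its first to its last base. *Sdc4*, a heparan sulfate proteoglycan of the MuSC surface, measured 7787 bp in replicate 1 but 3656 bp in replicate 2, and *Itga7*, a laminin-binding integrin, 5811 and 3496 bp. The myogenic factors *Myf5* and *Myod1* had 5004 and 3462 bp and 4179 and 3697 bp. *Heyl*, a target of Notch signalling, had 4663 and 3720 bp, and *Vcam1*, an adhesion molecule used for sorting MuSCs, 4391 and 3014 bp. The other members were narrower. The calcitonin receptor gene *Calcr* had 2530 and 1350 bp with summits at −10824 and −10874 bp from its reference TSS, next to an upstream TSS, and *Chrdl2* had 2580 and 1388 bp, *Cdh15* (M-cadherin) 2388 and 2025 bp, and *Notch3* 2041 and 1548 bp. In every gene of the list the peak was wider in replicate 1.

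Markers of other cell types were marked in part, and none of their peaks was over 4 kb wide. Of 10 fibro-adipogenic, 10 endothelial, 9 blood, 10 myofibre and 10 neuron markers, 5, 5, 3, 4 and 4 were marked in both replicates, beside 59.6% of all coding genes, with median widths of 1532, 1237, 890, 1167 and 704 bp in replicate 1 and 1615, 1024, 275, 867 and 378 bp in replicate 2. The fibro-adipogenic markers *Col15a1*, *Dpt*, *Cd55*, *Dpp4* and *Pdgfra* were marked, with folds from 6.99 to 24.1 in replicate 1 and from 5.21 to 16.7 in replicate 2. The *Pdgfra* summits lay 3899 and 4247 bp into the gene from its reference TSS. *Dcn*, *Lum*, *Pi16*, *Mfap5* and *Ly6a* had no peak. The defining endothelial genes *Pecam1* and *Cdh5* had no peak, nor did *Tie1*, *Emcn* and *Robo4*. *Kdr* and *Tek* had folds of 11.0 and 8.82 and of 7.08 and 7.40. *Egfl7* (14.4 and 8.62), *Esam* (9.33 and 5.89) and *Cldn5* (8.26 and 6.61) were also marked. The *Egfl7* peak of replicate 1 also held a TSS of the coding gene *Gm20532*. From the reference TSS, the summits lay 6742 and 6666 bp downstream at *Egfl7* and 2487 and 3078 bp downstream at *Esam*. Of the blood genes, *Laptm5* (7.18 and 4.21), *Coro1a* (6.99 and 5.61) and *Spi1* (5.50 and 3.01) were marked in both replicates. The *Coro1a* summits lay 3237 and 3179 bp downstream of its reference TSS, and those of *Spi1* 14537 and 14506 bp. *Ptprc* (CD45) had a peak of 4.43-fold and *Tyrobp* one of 3.77-fold in replicate 1 and none in replicate 2. *Csf1r*, *Itgam*, *Cd68* and *Cd3e* had none.

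Among the myofibre genes, the contractile genes *Acta1*, *Myh1*, *Myh2*, *Myh4*, *Tnnt3* and *Ttn* had no TSS peak in either replicate. The peaks called for *Ckm*, *Mylpf* and *Actn3* also held a TSS of the neighbouring genes *Klc3*, *Tbc1d10b* and *Zdhhc24*, and had their summits at −965 to −560 bp from the myofibre gene's own reference TSS. *Pvalb* alone had a peak that held no other coding TSS, of 413 and 327 bp, and its summits were 1984 and 2038 bp into the gene. The contribution of other cells in the sorted population to these weaker peaks was not tested.

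**Figure D2:**
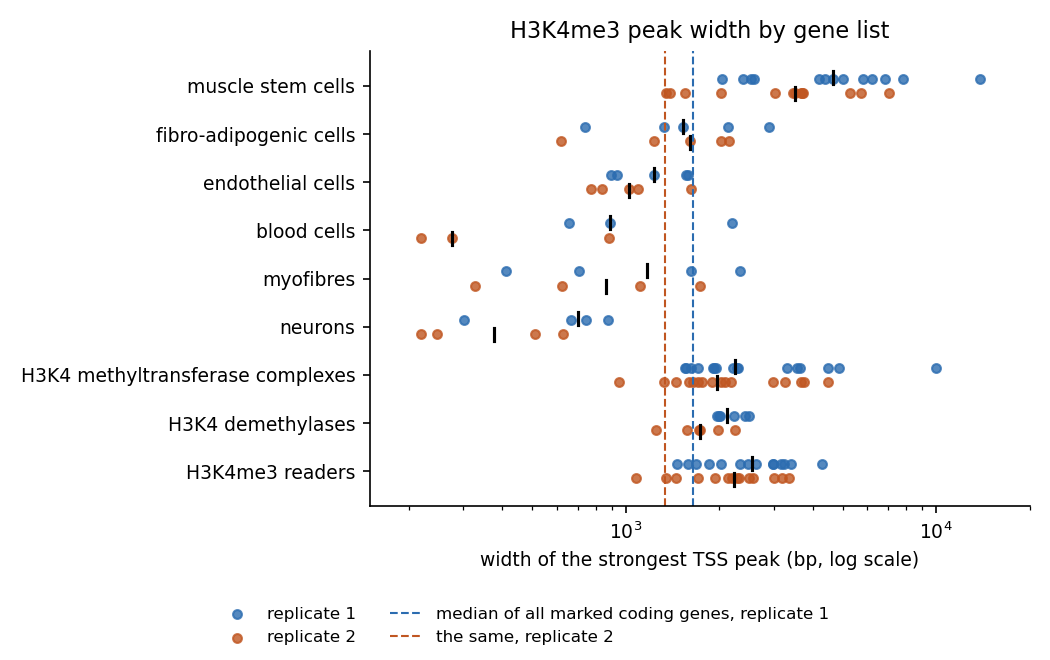
Width of the strongest TSS peak (bp, log scale) for each gene of a list that was marked in both replicates, with replicates 1 and 2 in separate rows, black ticks at the list median and dashed lines at the median of all marked coding genes (1646 and 1342 bp). The 13 MuSC markers run from 2041 to 13842 bp in replicate 1 and from 1350 to 7067 bp in replicate 2, and no marker of another cell type passes 4 kb.

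Every listed gene for H3K4 methyltransferase complexes, for H3K4 demethylases of any methylation state and for H3K4me3 readers had a TSS peak. All 16 genes of the H3K4 methyltransferase complexes, 6 of 6 demethylase genes and 14 of 14 reader genes were marked in both replicates, beside 59.6% of all coding genes and 94.2% of those with a CpG-rich promoter as defined below. Among the methyltransferases, *Setd1b* had the widest peak, 9973 and 4475 bp, and *Kmt2d* (4875 and 3746 bp) and *Kmt2a* (4464 and 3658 bp) passed 4 kb in replicate 1. *Kmt2b*, the MLL enzyme known for CpG island promoters, had a peak of 2285 and 1892 bp at folds of 39.3 and 36.3. The shared core subunit genes *Wdr5*, *Ash2l*, *Rbbp5* and *Dpy30* had peaks of 1556 to 1951 bp in replicate 1 and 1452 to 1758 bp in replicate 2. Among the H3K4 demethylases, *Kdm5b* had folds of 41.3 and 28.9 and *Kdm1a* (LSD1) 41.5 and 38.5. The reader *Phf13* had 54.2 and 41.4, the highest of these 3 lists in both replicates.

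Across all coding genes, the widest peaks by the lower replicate were at *Gnas*, which encodes the stimulatory G protein alpha subunit (10412 and 8560 bp), and at *Irs2*, an adaptor of insulin signalling (8260 and 8125 bp). They were followed by *Arhgef2*, a guanine nucleotide exchange factor (11565 and 7926 bp), *2010111I01Rik* (12602 and 7617 bp), the homeobox repressor *Tgif1* (8092 and 7528 bp) and *Pax7*. Next came *Brd2*, a BET bromodomain gene whose peak of 7420 and 7022 bp was also assigned to *H2-DMa*, the kinase gene *Sgk1* (7517 and 6940 bp) and *Irs1* (9829 and 6938 bp). The strongest peaks were not the widest. *Csnk1d*, a casein kinase gene, led with folds of 56.5 and 50.7 over 2965 and 2427 bp, followed by *Hipk1* (53.1 and 46.1), the splicing-related *Rsrp1* (54.5 and 46), *Bicral*, *Srsf4*, *Ccnl1*, *Cyth2*, *Hnrnpl*, *Gatad2b* and *Ptma*, all of at least 43.9-fold in both replicates. Of these 10 genes, *Ptma* alone had a peak over 4 kb in both replicates (4588 and 4508 bp).

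Wide peaks were almost always promoter peaks with acetylation. Of the 425 and 177 peaks over 4 kb, 99.8% and 98.3% lay at a TSS, 96.9% and 98.9% overlapped H3K27ac peaks of both replicates, and all overlapped ATAC-seq peaks of both. The shares were also high for peaks over 2 kb and up to 3 kb wide. Of these, 98.1% and 98.6% lay at a TSS, 90.8% and 93.5% overlapped H3K27ac, and 99.7% in each replicate overlapped ATAC-seq. Of the peaks of up to 500 bp, 32.5% and 48.5% lay at a TSS and 15.5% and 21.2% overlapped H3K27ac. A wider peak has more room to overlap a TSS or another peak, and the part played by size alone was not tested. Over the whole lists, 72.2% and 80.6% of peaks lay at a TSS, with median widths of 1462 and 1193 bp and median folds of 19.9 and 14.8, against 448 and 374 bp and 4.13 and 4.20 for peaks away from any TSS. Peaks inside genes but away from TSSs made up 15.3% and 10.5% of the lists and 6.36% and 4.41% of the bases.

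H3K4me3 peaks were wider than those of the other features. The median width of TSS peaks was 1327 ± 190 bp (SD, n = 2), against 876 ± 103 bp for H3K27ac and 213 ± 62.9 bp for ATAC-seq, with no overlap between libraries of different features (exact permutation test, two-sided p = 0.333 for each pair, the smallest this design allows). The part played by assay, depth and peak calling in these widths, and in the reaches compared below, was not tested.

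The mark extended further into the gene than away from it. This was measured at 7768 isolated coding promoters, of genes at least 5 kb long with no TSS of another gene within 5 kb. Genes with a further TSS of their own over 500 bp and up to 5 kb from the reference TSS were also left out. Of the 7768 promoters, 4263 and 4101 had a peak in replicates 1 and 2, and the peak covered the TSS itself in 94.0% and 90.8%. From the TSS, the peak reached a median of 445 and 333 bp upstream but 997 and 855 bp downstream, and it reached further downstream than upstream at 89.7% and 90.3% of promoters. A reach of 2 kb or more was seen downstream at 8.56% and 4.73% of promoters and upstream at 0.328% and 0.171%. At a point 1 kb downstream of the TSS, 27.5% and 19.2% of isolated promoters were under a peak, against 4.06% and 2.38% at 1 kb upstream.

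H3K27ac peaks at the same promoters reached a median of 742 and 681 bp downstream and ATAC-seq peaks 279 and 312 bp. The mean over libraries was 926 ± 100.4 bp for H3K4me3 and 712 ± 43.1 bp for H3K27ac (SD, n = 2 each), a difference of 215 bp with no overlap (exact permutation test, two-sided p = 0.333, the smallest possible). The share of promoters with the longer arm downstream was 85.8% ± 0.326 for H3K27ac and 60.9% ± 0.772 for ATAC-seq (SD, n = 2 each), both below the 90.0% ± 0.403 of H3K4me3.

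**Figure D3:**
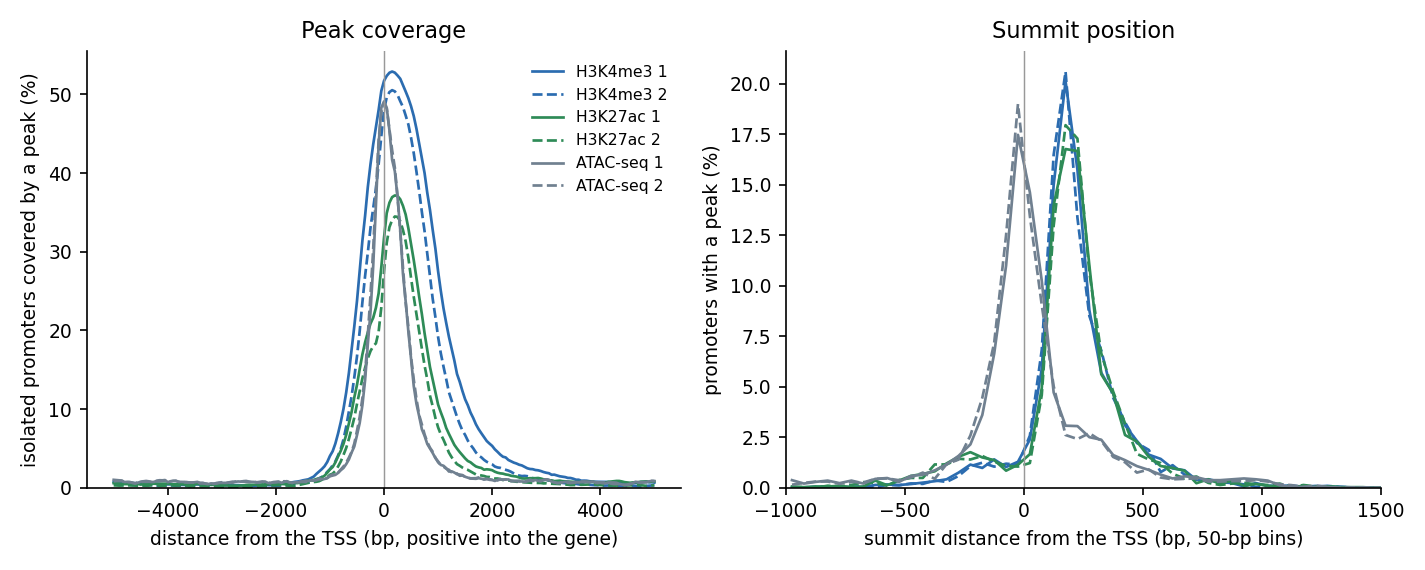
Left, share of the 7768 isolated coding promoters (%, y axis) under a peak at each distance from the TSS (bp, positive into the gene) for both replicates of H3K4me3, H3K27ac and ATAC-seq. Right, share of promoters with a peak (%) by position of the peak summit in 50-bp bins, where both H3K4me3 and both H3K27ac curves peak 150 to 199 bp downstream and both ATAC-seq curves in the 50 bp before the TSS.

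The reach into the gene changed little with gene length. In genes of 5 to 10 kb the median reach was 915 and 785 bp, which was 12.3% and 10.8% of the gene, and in genes over 100 kb it was 1061 and 896 bp, which was 0.582% and 0.495%. The share of isolated promoters with a peak was higher in longer genes, from 29.3% and 28.4% to 68.5% and 66.3%. Reach varied with the first exon. With a first exon of up to 100 bp the median reach was 872 and 736 bp, and with one over 800 bp it was 1323 and 1128 bp, while the upstream reach was 464 and 362 bp in the first of these classes and 471 and 333 bp in the last. The downstream edge lay within the first exon at only 5.70% and 6.95% of promoters. Across promoters, which are not independent replicates, the downstream reach had a Spearman correlation with fold of 0.578 over 4263 and 0.592 over 4101 promoters, given as a description since both come from the same peak call.

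The longest reach into the gene by the lower replicate was at *Irs1*, 8799 and 5940 bp, past a first exon of 4640 bp that holds its coding sequence. *Irf2bp2*, a corepressor gene of 5691 bp, had 6269 and 5458 bp, so that the peak ran past the end of the gene in replicate 1, and *Trib1*, a pseudokinase gene, 5846 and 4837 bp. *Flnc*, which encodes the muscle filamin, had 4282 and 4225 bp and differed least between replicates among the 10. *Ski*, the RNA-binding protein gene *Qk*, *Pdpn*, *Tnrc18*, *Sox11* and *Plxnd1* followed, with 3895 to 4052 bp in replicate 2 and 4202 to 5328 bp in replicate 1. *Tnrc18* also reached 6320 bp upstream in replicate 1 but 32 bp in replicate 2.

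Long upstream arms were rarer and shorter. The longest were at *Efna5*, an ephrin ligand gene (3078 and 2954 bp), *Igf1r*, the insulin-like growth factor receptor gene (2635 and 2535 bp), and *Adamts6*, a metalloproteinase gene (2369 and 2556 bp). *Nipbl*, the cohesin loader gene, had 2243 and 2219 bp and *Foxo3*, a forkhead transcription factor gene, 2105 and 2082 bp. *Igf1r*, *Nipbl* and *Foxo3* also reached 1951 to 3125 bp into the gene, whereas *Efna5* and *Adamts6* reached 766 to 1604 bp.

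Short genes could lie wholly inside one peak, as 99 coding genes did in both replicates (154 and 99 per replicate), 19 of them histone genes. Their median length was 905 bp. The longest were the immediate early gene *Egr1* (5162 bp), *Spry1* (4652 bp), the survival gene *Mcl1* (4389 bp) and the mRNA decay factor gene *Zfp36l2* (4017 bp). *Jun*, *Lbx1* (a homeobox gene of migrating muscle precursors), *Gas1*, *Msc*, *Myod1* and *Gadd45a* completed the 10 longest.

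The summit, the point of highest enrichment, lay downstream of the TSS. At isolated promoters the median summit was 193 and 186 bp into the gene in replicates 1 and 2, and the fullest 50-bp bin was 150 to 199 bp downstream, with 20.1% and 20.6% of promoters. Summits were downstream of the TSS at 91.0% and 91.7% of promoters and more than 1 kb downstream at 0.844% and 0.658%. H3K27ac summits had medians of 198 and 201.5 bp, 10.3 bp further than H3K4me3 as a mean over libraries (exact permutation test, two-sided p = 0.333, the smallest possible). ATAC-seq summits had medians of 1 and −10 bp. Measured from the ATAC-seq summit of the same promoter and replicate number, the H3K4me3 summit lay a median of 191 and 196 bp further into the gene, over 4176 and 3998 promoters.

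Summits shifted less between replicates than edges did. Over 4089 promoters with a peak in both replicates, the summit in replicate 1 minus that in replicate 2 had a median of 5 bp and 79.2% lay within 100 bp. By contrast, the downstream reach was longer in replicate 1 at 88.9% of these promoters, by a median of 142 bp, and the width was larger at 94.9%, by 261 bp. The Spearman correlation between replicates, across promoters that are not independent, was 0.911 for reach and 0.748 for the summit. The summit moved only from 153 and 144 bp to 250 and 275 bp between the shortest and the longest class of first exon.

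A few promoters departed from this position in both replicates. *Maml3*, a coactivator gene of Notch signalling, had its summit 2532 and 2536 bp downstream, and *Mamld1*, *Btn1a1*, *Arid5b* and *Tsc22d3* had theirs 1583 to 1904 bp downstream. *Adamts6* had its summit at −1663 and −1695 bp and *Efna5* at −1557 and −1579 bp, the same genes that had long upstream arms. The summits of *Esrp1*, *Wnt2* and *Usp49* lay at −1425 to −1289 bp.

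Divergent promoters lay mostly under a single peak of the mark. Of 776 pairs of coding genes with TSSs on opposite strands up to 1 kb apart, both TSSs were marked in 731 and 729 pairs, and one peak lay over both in 685 (93.7%) and 643 (88.2%). These peaks had median widths of 2022 and 1720 bp. The summit lay between the TSSs in 29 (4.23%) and 26 (4.04%), and outside the interval in the rest. The paired TSSs were a median of 149 bp apart, and the narrowest peaks of the lists were 189 and 170 bp wide. This spacing left little room for separate peaks or for a summit between the TSSs.

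One promoter was marked in most genes with several. TSSs over 2 kb apart were counted as separate promoters, and 11208 coding genes had at least 2. Of these, 1078 and 862 had 2 or more promoters under different peaks in replicates 1 and 2, and 826 (7.37%) did so in both, with at least 2 marked promoters shared between replicates in 824 of them. At least 3 were marked in 94 genes and at least 4 in 12. In 586 of the 826 the count held after removing promoters within 1 kb of another coding gene's TSS. The number depended on the annotation and was 467 with transcripts tagged basic only.

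Among the 5850 genes with 2 promoters, 3691 and 3580 were marked. The mark was at the upstream promoter alone in 84.0% and 86.1% of these, at the downstream one alone in 6.45% and 6.42%, and at both in 9.51% and 7.46%. The pattern was the same in both replicates for 96.4% of the 5850 genes. This share also counts genes marked at neither promoter, which were 2159 in replicate 1 and 2270 in replicate 2. In the 826 genes with several marked promoters, the strongest peak had 2.17 and 2.08 times the fold of the weakest in the median, and the most upstream marked promoter was the strongest in 59.9% and 61.0%.

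Promoters that shared a peak were counted once. *Zbtb20*, a zinc finger repressor gene spread over 766722 bp of chromosome 16, had the most separately marked promoters, 6 of 8 in each replicate with 5 the same. Its first promoter was far the strongest, with folds of 33.9 and 21.5. The highest of the others were 10.0 at the fifth in replicate 1 and 7.06 at the second in replicate 2. *Abr* and *Dst* followed with 5. *Abr*, a gene of a small GTPase regulator, had its strongest peak at the sixth of 8 promoters (20.6 and 17.4) and the next at the first (18.5 and 13.8). *Dst*, which encodes a giant plakin of the cytoskeleton, had its strongest at the third of 11 (29.9 and 24.6). *Plec*, the related plectin gene known for its alternative first exons, had 4 of 5 promoters marked, with folds of 16.2, 14.9, 15.7 and 3.59 in replicate 1 and 15.2, 10.7, 10.1 and 4.21 in replicate 2. At the first *Plec* promoter the strongest peaks did not overlap, lying at chr15:76231930-76233200 in replicate 1 and chr15:76228503-76229937 in replicate 2. The phosphodiesterase genes *Pde4b* and *Pde4d*, and *2010111I01Rik*, *Frmd4a*, *Pde4dip* and *Psd3*, had at least 4 in each replicate.

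Of a list of 30 genes with known alternative promoters, 25 were marked in both replicates and 11 had 2 or more separately marked promoters. *Runx1*, a transcription factor gene with a distal and a proximal promoter, was marked at both, with folds of 5.70 and 4.01 and widths of 1542 and 788 bp at the distal one. The proximal one had folds of 32.3 and 20.1 and widths of 7759 and 6297 bp. These are the promoters printed above with 2 and 35 CG dinucleotides. *Dmd*, the dystrophin gene, had folds of 4.13 and 3.01 at the first of its 9 promoters and 16.3 and 9.42 at the eighth, over 2 Mb further downstream. The 7 others had no peak. *Gnas* had folds of 5.33 and 7.13, 8.62 and 7.01, and 40.4 and 32.2 at its first 3 promoters, and the third carried the widest peak of all coding genes by the lower replicate.

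*Fgfr1* had 3 separately marked promoters per replicate, 2 of them the same, with the strongest at the second (44.6 and 34.9). *Ank1* had marks of similar fold at the first, the third and the sixth (13.8, 13.5 and 16.2 in replicate 1, and 13.2, 10.0 and 10.0 in replicate 2). Several genes carried the mark only at an internal promoter, as *Runx2* (23.3 and 17.8), *Runx3* (9.69 and 6.94) and *Ppargc1a* (19.4 and 13) did at the second of 2. *Trp63*, *Myl1*, *Ldb3* and *Hnf4a* had no TSS peak.

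**Figure D4:**
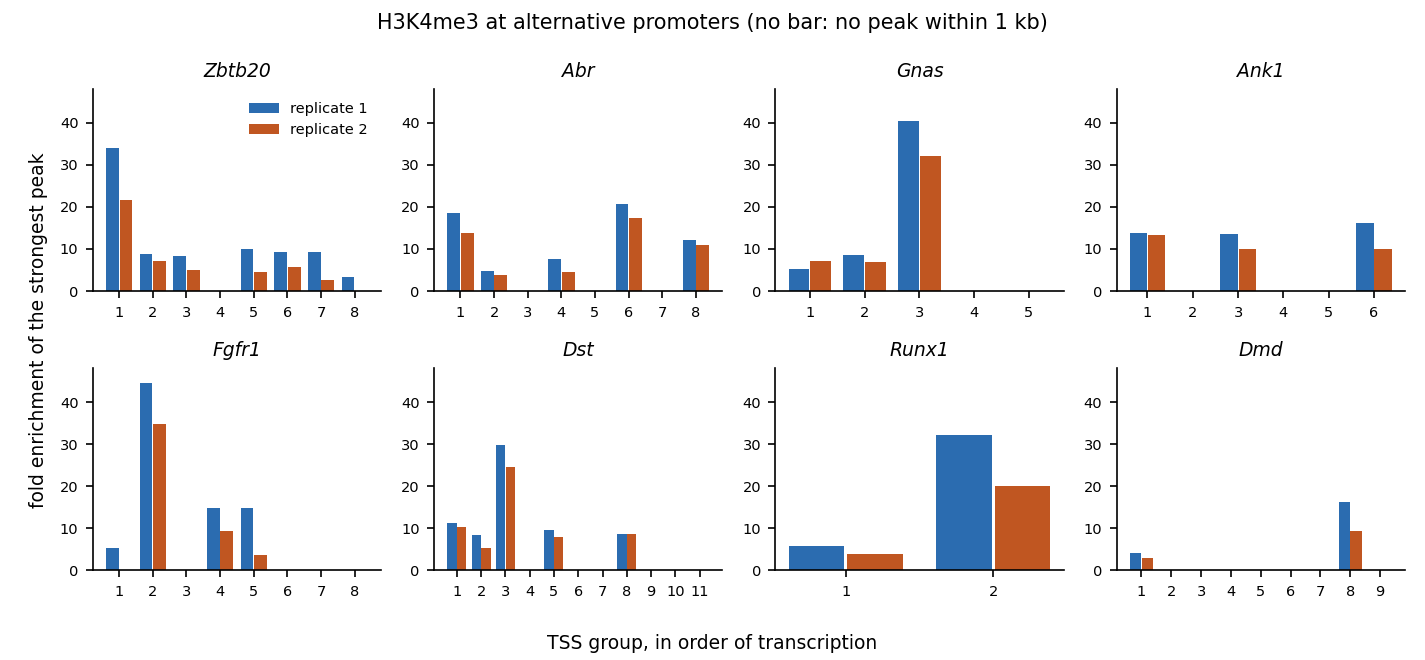
Fold enrichment of the strongest H3K4me3 peak (y axis) at each promoter of 8 genes, numbered in order of transcription, with 1 bar per replicate and no bar where no peak lay within 1 kb. The first promoter was the strongest in *Zbtb20* (33.9 and 21.5), the last marked one in *Runx1* (32.3 and 20.1), *Gnas* (40.4 and 32.2) and *Dmd* (16.3 and 9.42).

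The share of genes marked followed the CpG content of the promoter. The 1-kb window around the reference TSS, the one shared by most transcripts of a gene, was classed for 21931 coding genes, of which 12196 (55.6%) had a peak within 1 kb of that TSS in both replicates. CpG-rich windows, with an observed to expected CpG ratio of at least 0.6 and at least 50% GC, were marked in 94.9% and 94.3% of 9712 genes in replicates 1 and 2 (94.2% in both). Intermediate windows were marked in 72.0% and 68.0% of 3371 genes, and CpG-poor windows, with a ratio under 0.4, in 11.3% and 8.74% of 8848. By bins of the ratio, the share marked in both ran from 0.503% of genes under 0.1 to 97.0% of genes at 1.0 or more. The median ratio was 0.741 for genes marked in both and 0.199 for the others, and 75% of marked genes were CpG-rich against 44.3% of all. LincRNA genes divided in the same order, with 87.1% of 349 CpG-rich, 29.4% of 612 intermediate and 2.29% of 4892 CpG-poor genes marked in both replicates.

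**Figure D5:**
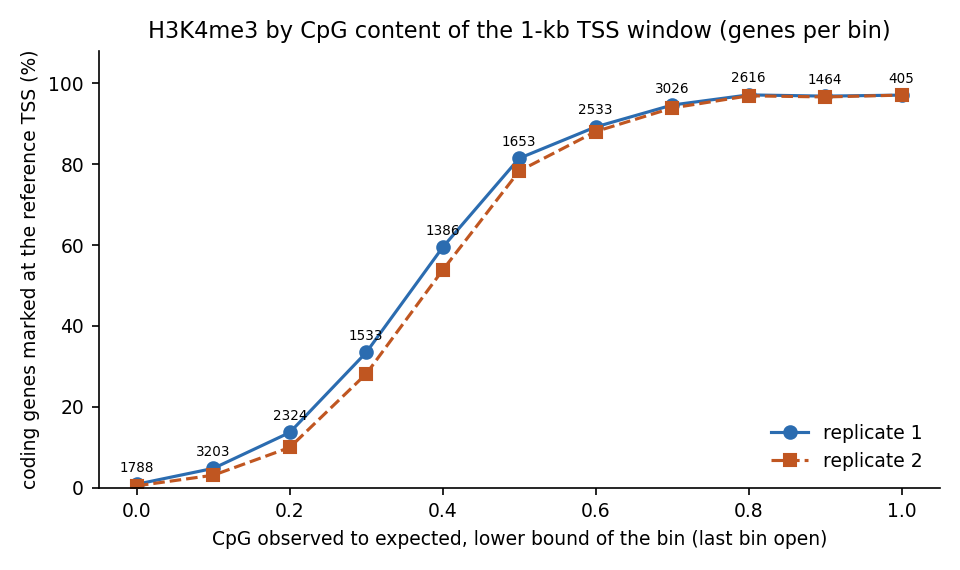
Share of coding genes (%, y axis) with an H3K4me3 peak within 1 kb of the reference TSS by the observed to expected CpG ratio of the 1-kb TSS window (x axis, lower bound of each bin, last bin open), for replicates 1 and 2, with the number of genes per bin above the points. The share in both replicates runs from 0.503% in the lowest bin to 97.0% in the highest.

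The promoter windows from 250 bases before to 50 bases after the reference TSS also differed in core motifs, counted as letters on both strands unless stated. GGGCGG, the GC box, was in 65.9% of promoters marked in both replicates and 15.2% of the others, with 43.4% of all 21931. This motif itself holds a CG, and among CpG-poor genes the shares were 26.1% and 9.16%. TATAAA on the gene's strand, starting 40 to 20 bases before the reference TSS, was in 0.861% and 4.55% (2.50% of all). CCAAT was in 37.8% and 39.9% (38.7% of all). A match says only that these letters are in the window.

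CpG-poor genes that were marked often had the peak beside the annotated TSS and not over it. Of the 765 CpG-poor genes marked in both replicates, the peak covered the reference TSS in 58.6% and 45.1%, against 97.8% and 94.3% of CpG-rich genes. The summit lay in a CpG-rich window in 27.7% and 27.3% of them and in a CpG-poor one in 48.9% and 49.5%. The 10 with the highest fold were *Sub1*, *Wtap*, *Gm10643*, *Sft2d3*, *Prkar1a*, *Btbd2*, *Capza2*, *Csrnp1*, *Rdx* and *Tbc1d10c*, with folds of 32.5 to 58.3 over both replicates. At none of them did the peak cover the reference TSS in both replicates. The summits lay upstream at *Gm10643* (−1880 and −1886 bp) and *Tbc1d10c* (−1026 and −1020 bp), and downstream at the others. Whether any of these peaks held a TSS of another gene was not measured. *Wtap*, a subunit gene of the m6A methyltransferase, had a ratio of 0.0464 at its reference TSS and 0.944 in both replicates at the summits, which lay 2139 and 2136 bp downstream. *Rdx*, the radixin gene printed above, had 0.396 at the reference TSS and 1.07 and 0.993 at its summits 1262 and 1422 bp downstream. Over the 10 genes the ratio at the summit ran from 0.750 to 1.07 in replicate 1.

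Summits of TSS peaks lay in CpG-rich windows in 69.0% and 71.9% of cases, and those of peaks away from TSSs in 11.1% and 17.2%. Within each class the CpG-rich peaks were the wider ones. At TSSs, peaks with a CpG-rich summit had median widths of 1668 and 1359 bp and those with a CpG-poor summit 574 and 448 bp. Away from TSSs the values were 862 and 702 bp against 364 and 301 bp.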

How the data were processed

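H3K4me3, H3K27ac and ATAC-seq peak lists of MuSCs, 2 libraries each, were analysed, and the H3K27me3 lists, inputs and editing samples were not used here. According to the methods and the submitters' processing notes, the authors trimmed reads with Trim Galore 0.6.10, aligned them to mm10 with BWA 0.7.17-r1188, removed reads of low mapping quality and duplicates (SAMtools 1.5, Sambamba) and blacklisted regions (bedtools), shifted ATAC-seq reads with deepTools 3.5.5, and called peaks with MACS2 2.2.6 in each library. Use of the input as control is not given in the sources used here. The deposited columns are a score (the q-value scaled to whole numbers), a fold enrichment ratio at the summit over local background, the −log10 p-value and −log10 q-value at the summit, and the summit position within the peak, all as deposited by the authors. Fold is set by the local background of each library, and narrow peak calling can split a wide domain, so widths are lower limits of a domain.

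Peaks of the 21 assembled chromosomes were placed relative to the starts of 141730 transcripts of GENCODE M21. A gene's width and fold are those of its strongest peak within 1 kb of a TSS, and its reference TSS is the one shared by most of its transcripts (the most upstream in ties). CpG windows of 1 kb were read from RefSeq GRCm38.p6, and printed promoters came from the RefSeq promoter table of 32851 promoters, in which 16516 of 21931 coding symbols matched and *Myod1* was not. Named genes were all members of the gene lists, the 10 widest coding genes, the 10 longest reaches downstream and 5 upstream, the 5 furthest summits either way, the 10 genes with most marked promoters, the 3 strongest noncoding genes per type away from coding TSSs, and the 10 strongest CpG-poor genes, ranked by the lower replicate. The 10 strongest peaks, the families and the 10 longest genes inside one peak were added after their values were seen. Members, lists and tests were chosen with earlier results of these data known. Libraries were compared by exact permutation tests (SciPy 1.17.1), and nothing was tested across genes. Alternatives changed the TSS window, peak threshold, transcripts, peak joining, isolation, promoter spacing, CpG limit and replicates. Python 3.11.15, NumPy 2.4.6, pandas 2.3.3 and Matplotlib 3.10.9 were used, and scripts were tested on simulated data. The depth per library is unknown, as the lists hold no counts.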

Additional observations from a re-analysis of the deposited data

How the results depend on the processing

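For 9 results, 63 values were recomputed under alternative settings. Of these, 54 moved by no more than the spread between replicates, or for counts stayed within 1.5 times, and none reversed. Where a result was the mean of the 2 replicates, leaving out one cannot move it beyond that spread, so those values were fixed in advance. Counts, widths and shares cannot change sign, so a reversal was not possible for them. The share of promoters with the longer arm downstream, 90.0%, was 89.4% with peaks within 1 kb joined and 89.5% with no other gene's TSS within 10 kb, and the share of summits downstream, 91.4%, was 90.6% in the latter. The median summit, 189.5 bp, was 184 bp where the peak had to cover the TSS base. Genes with 2 or more separately marked promoters fell from 826 to 467 with basic transcripts only. The share of CpG-rich promoters marked in both replicates, 94.2%, was 89.4% with the TSS base itself, 93.5% with a −log10 q of at least 5 and 96.4% with a CpG ratio of at least 0.75. The cause of these shifts was not tested beyond the construction of each setting. Leaving out one replicate gave ranges of 94.3% to 94.9% for CpG-rich promoters, 13110 to 13531 marked coding genes, 626 to 728 lincRNA genes, 862 to 1078 genes with several promoters, and median TSS peak widths of 1193 to 1462 bp. It also gave 855 to 997 bp for reach, 89.7% to 90.3% for the downstream arm, 186 to 193 bp for the summit and 91.0% to 91.7% for summits downstream. Counts of peaks over 4 kb were 425 against 177 in replicates 1 and 2. No paired analysis was possible because the comparisons are between libraries of different features with 2 replicates each and a share or median per library, and the labels do not say that a number marks a shared animal. With no read counts, whether weak peaks found in one replicate reflect depth could not be measured.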

Other observations

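CpG-rich coding promoters without the mark formed a small group. Of 9712 such genes, 490 had no H3K4me3 peak within 1 kb of the reference TSS in either replicate, and for 241 (49.2%) of these no peak of any of the 6 H3K4me3, H3K27ac and ATAC-seq lists lay within 10 kb, against 21.7% of all coding genes. Among these 241 were 17 of 47 CpG-rich Hist1 and Hist2 histone genes, 4 of 5 H2-Q class I genes, and all 3 copies each of *Srp54*, *Dynlt1* and *Tmem254*. Numbered Gm gene models gave 32 of 175. How alike the members of each group are, and how surely reads can be placed at single copies, were not measured. The removal of reads of low mapping quality was not tested as a part of this.

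Housekeeping genes were among the 490 too, and are named after their values were seen. *Psma7* and *Psmc5* (proteasome), *Ndufa6* (complex I) and *Mrpl43* (mitochondrial ribosome) had CpG ratios of 0.965, 0.668, 0.802 and 0.962 at the reference TSS, and their nearest peak of the 6 lists was 16821, 38151, 14699 and 4748 bp away. In both replicates, 44 of 49 proteasome, 44 of 46 complex I and 77 of 78 mitochondrial ribosome genes were marked.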
